A study of Saccharomyces cerevisiae with 5 samples.

Results

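The genes for the last steps of alcoholic fermentation were followed in budding yeast (Saccharomyces cerevisiae) as it recovered from high hydrostatic pressure: the pyruvate decarboxylase genes PDC1, PDC5 and PDC6, the alcohol dehydrogenase genes ADH1, ADH2, ADH3, ADH4 and ADH5, and the acetaldehyde dehydrogenase genes ALD4 and ALD6. They are all the features whose symbol in the platform annotation is 1 of these 10 names, 1 feature for each gene, and all 10 had values in at least 2 of the 3 hybridizations, out of 4368 genes and unnamed features that did. The recovering cells had been pressed at 30 MPa and 25 °C for 16 h from exponential growth and had then grown for 2 h at 0.1 MPa. The decompressed cells had gone through the same pressure treatment and were harvested at release (0 h), so both groups carry the pressure history and no unpressed culture is compared here. Each of 3 hybridizations of independent biological samples carried polyA RNA of recovering cells, labelled with Cy5, and of decompressed cells, labelled with Cy3, on 1 array of spotted features; the 3 are called arrays 1, 2 and 3 here. The strain and the growth medium are not given in the sources used here.

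Pyruvate decarboxylase splits pyruvate, the end product of glycolysis, into carbon dioxide and acetaldehyde, with thiamine diphosphate as its cofactor. Alcohol dehydrogenase then reduces acetaldehyde to ethanol and so regenerates the NAD+ that glycolysis needs, or runs backwards when cells burn ethanol. Aldehyde dehydrogenase oxidises acetaldehyde to acetate, the start of the route to cytosolic acetyl-CoA. In yeast growing on glucose, PDC1 and ADH1 are among the most abundant transcripts of the cell.

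Values are log2 ratios, 1 per scan. Arrays 1 and 2 each have a scan at high power and one at low power, and array 3 has a single scan. Which channel is on top is not stated in the labels. The ratio is read here as recovery over decompressed, which is likely from the order of the channels, and every direction below turns round if it was formed the other way. A ratio compares shares of the labelled RNA, and in a bulk culture fewer expressing cells and less RNA per cell cannot be told apart. All arrays carry the dyes in 1 orientation, so an effect of the dye on a gene and its change cannot be told apart. Array 3 had the fewest features with a value, 33.0% of 6336, against 57.8% to 79.0% in the other 4 scans.

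All 3 pyruvate decarboxylase genes and the alcohol dehydrogenase genes ADH1, ADH2 and ADH3 were lower in recovery, each by more than 2-fold. ADH4, ADH5, ALD4 and ALD6 were not called in either direction. That makes 6 of 10 genes called lower and 0 called higher in limma's test at an adjusted p of 0.05, where 12.7% of all 4368 tested were called lower and 11.9% higher. At an unadjusted p under 0.05, limma put 7 of the 10 lower and 0 higher, beside 774 lower and 758 higher of all 4368. A 2-fold or larger fall was called for 6.18% of all tested, and for the same 6 of the 10. In 7 of the 10 the ratio was below 0 on every array with a value, which held for 33.2% of all tested. The median log2 ratio of the 10 genes was -1.30, against -0.01 over all tested. Earlier results of these data were known when the 10 genes were chosen, so the counts describe them and carry no test of the group.

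**Figure D1:**
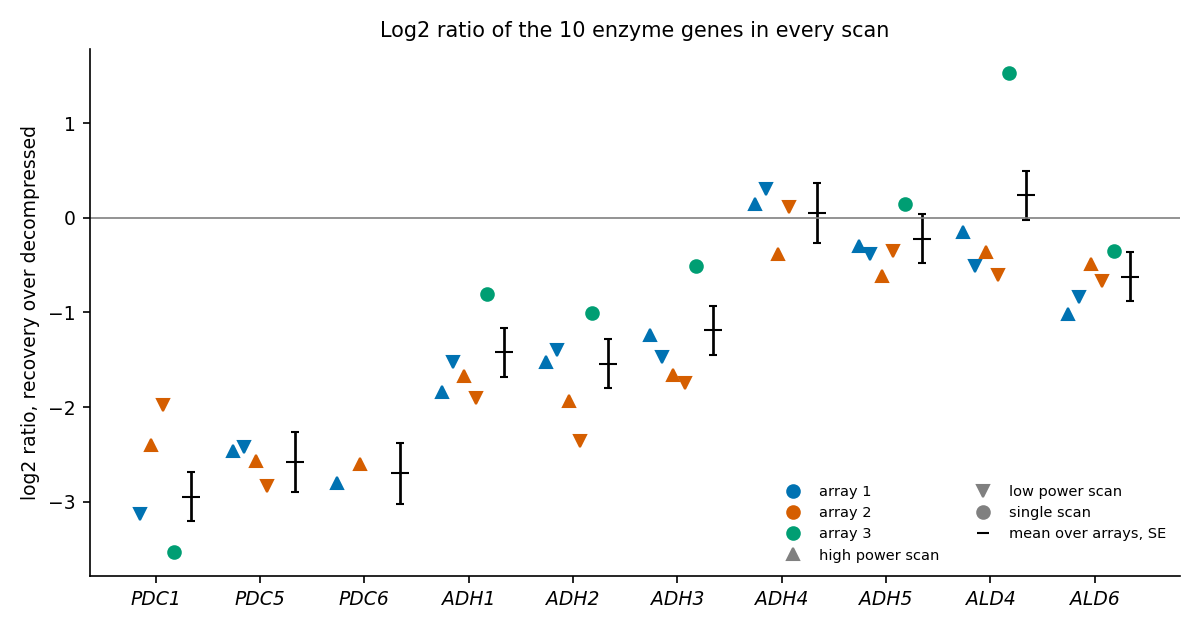
Log2 ratio of recovery over decompressed (vertical axis) for each of the 10 genes, with 1 symbol per scan, coloured by array, and the mean over arrays with its limma standard error in black. The scans of the pyruvate decarboxylase genes lie between -3.53 and -1.98, ADH1, ADH2 and ADH3 lie between -2.36 and -0.51, and ALD4 splits into 4 scans below 0 and array 3 at 1.53.

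PDC1 (YLR044C) encodes the main pyruvate decarboxylase of fermenting cells. Its log2 ratio was -3.13 in the low power scan of array 1, -2.40 and -1.98 on array 2 (high and low power), and -3.53 on array 3. All 4 scans were below -1.9, array 2 was the mildest and array 3 the strongest. The mean was -2.95 ± 0.69 (SD, n = 3), a level 7.73-fold lower in recovery. Only MET6, the methionine synthase gene, and VTC3, a gene of polyphosphate synthesis, had a lower mean among the 4368 genes and features tested. That rank sets means over 3 arrays beside means over 2, and without array 3 PDC1 was at -2.66. The high power scan of array 1 had no value for PDC1, which is among 116 genes and features with a value in the low power scan alone; the low scans were made to rescue spots brighter than the scanning range.

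PDC5 (YLR134W) encodes a second pyruvate decarboxylase, which is known to be raised in cells without PDC1. Its log2 ratios were -2.47 at high power and -2.42 at low power on array 1, -2.57 and -2.84 on array 2, and array 3 had no value. The 4 scans lay within 0.5 of each other and gave a mean of -2.58 ± 0.18 (SD, n = 2), a 5.96-fold lower level. PDC6 (YGR087C), a minor isoform known to be induced when sulphur is short, was measured in the high power scans only. It stood at -2.80 on array 1 and at -2.60 on array 2, with a mean of -2.70 ± 0.14 (SD, n = 2), which is 6.51-fold lower. PDC6 was the sixth lowest and PDC5 the eighth lowest of all 4368.

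The 3 pyruvate decarboxylase genes did not differ from each other beyond their spread. PDC1 minus PDC5 was -0.68 on array 1 and 0.52 on array 2, and PDC1 minus PDC6 was -0.33 and 0.42 on the same arrays. The 3 genes encode similar proteins, and how far each feature reads its own transcript was not tested here. PDC1 passed limma at an adjusted p of 3.57e-26, PDC5 at 1.64e-13 and PDC6 at 9.17e-15. These p-values are smaller than 2 or 3 arrays can carry on their own: the fit estimated 1 common variance for all genes, so that every gene with 3 values had a standard error of 0.26 and every gene with 2 values one of 0.32, whatever its own spread. In the fit over the 1891 genes and features with all 3 values, where 12.2% were called lower and a gene's own spread counts, PDC1 passed with a standard error of 0.28 and an adjusted p of 2.5e-05. PDC5 and PDC6 have no value there; over the other alternatives their largest limma adjusted p was 0.000893 and 0.000184.

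ADH1 (YOL086C) encodes the main enzyme that turns acetaldehyde into ethanol. Its log2 ratios were -1.84 at high power and -1.52 at low power on array 1, -1.67 and -1.90 on array 2, and -0.80 on array 3. The 5 scans were all below 0, with array 3 the closest to it. The mean was -1.42 ± 0.54 (SD, n = 3), 2.68-fold lower in recovery, with a limma adjusted p of 1.67e-06, and 0.00164 in the fit over genes with all 3 values.

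ADH2 (YMR303C) encodes the isoenzyme that oxidises ethanol and is known to be repressed by glucose and activated by Adr1 and Snf1. Its log2 ratios were -1.52 and -1.40 on array 1 (high and low power), -1.94 and -2.36 on array 2, and -1.01 on array 3. Every scan was below -1, and the mean of -1.54 ± 0.57 (SD, n = 3) is a 2.91-fold lower level, with a limma adjusted p of 1.72e-07, and 0.00109 in the fit over genes with all 3 values. ADH2 and ADH1 changed order between arrays, with ADH2 minus ADH1 at 0.22, -0.37 and -0.21, so the fermentative and the oxidative isoenzyme did not differ beyond their spread. The 2 proteins are close relatives, and cross-hybridization between their features was not tested.

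ADH3 (YMR083W) encodes the mitochondrial isoenzyme, which takes part in carrying reducing equivalents across the inner membrane. It stood at -1.24 and -1.47 on array 1 (high and low power), -1.66 and -1.75 on array 2, and -0.51 on array 3. Its mean of -1.19 ± 0.61 (SD, n = 3) is 2.28-fold lower, with a limma adjusted p of 0.0001, and 0.0058 in the fit over genes with all 3 values. Without array 2 the mean was -0.93 and missed the threshold (limma adjusted p = 0.0646). ADH3 lay above ADH1 on each array, by 0.33, 0.08 and 0.29, and above ADH2 by 0.11, 0.45 and 0.50.

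ADH5 (YBR145W), a minor alcohol dehydrogenase, was at -0.30 and -0.38 on array 1, -0.61 and -0.35 on array 2, and 0.15 on array 3. Its mean of -0.22 ± 0.33 (SD, n = 3) was not called (limma adjusted p = 0.594). ADH5 lay above ADH1 on all 3 arrays, by 1.34, 1.31 and 0.95, a mean difference of 1.20 ± 0.22 (SD, n = 3). With 3 arrays an exact two-sided sign-flip test of such a difference cannot give a p under 0.25, so differences between these genes are given as values.

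ADH4 (YGL256W) encodes an alcohol dehydrogenase unrelated in sequence to ADH1 and is a target of the zinc regulator Zap1. It was at 0.15 at high power and 0.31 at low power on array 1 and at -0.38 and 0.11 on array 2, with no value on array 3. The scans lie on both sides of 0, with a mean of 0.05 ± 0.26 (SD, n = 2, limma adjusted p = 0.932), and the sign of the mean turns to -0.12 with the high power scans alone. On the arrays they share, ADH4 was above ADH1 by 1.91 and 1.65.

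ALD6 (YPL061W) encodes the cytosolic acetaldehyde dehydrogenase, the main source of acetate in fermenting cells. Its log2 ratios were -1.02 and -0.84 on array 1 (high and low power), -0.49 and -0.67 on array 2, and -0.35 on array 3. All 5 scans were below 0, but the mean of -0.62 ± 0.29 (SD, n = 3) missed the threshold (limma adjusted p = 0.0641, and 0.072 in the fit over genes with all 3 values). It passed without array 3, at -0.75 (limma adjusted p = 0.0402), and with array weights, at -0.69 (adjusted p = 0.0355). It also passed after centring within 16 runs of features in numerical order, at -0.60 (adjusted p = 0.0294).

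ALD4 (YOR374W) encodes the main mitochondrial aldehyde dehydrogenase, which serves growth on ethanol. It was at -0.15 and -0.51 on array 1 (high and low power) and at -0.36 and -0.60 on array 2, against 1.53 on array 3. Array 3 thus stood alone, and the mean of 0.24 ± 1.12 (SD, n = 3) was not called (limma adjusted p = 0.554). Without array 3 the mean turned to -0.40 (adjusted p = 0.284). ALD6 lay below ALD4 on every array, with ALD6 minus ALD4 at -0.60, -0.10 and -1.88.

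**Figure D2:**
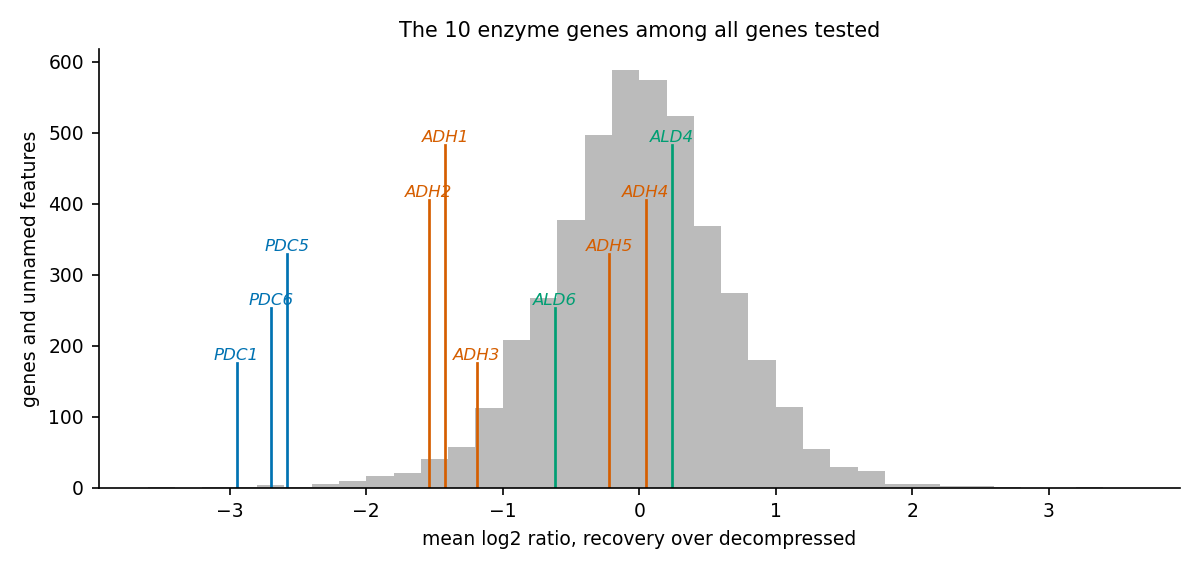
Number of genes and unnamed features (vertical axis) by mean log2 ratio of recovery over decompressed in bins of 0.2 (horizontal axis), with the 10 genes marked by lines whose height has no meaning; blue is pyruvate decarboxylase, orange alcohol dehydrogenase and green aldehyde dehydrogenase. The 3 PDC genes lie in the far low tail and ADH4, ADH5 and ALD4 in the body of the distribution.

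Ordered by mean log2 ratio from the lowest, the genes ran PDC1, PDC6, PDC5, ADH2, ADH1, ADH3, ALD6, ADH5, ADH4 and ALD4. PDC5, PDC6 and ADH4 rest on arrays 1 and 2 only. Without array 3, PDC1 was at -2.66 and PDC6 at -2.70, so the first place of PDC1 does not hold on the arrays they share. Of all tested, 0.0458% lay below PDC1, 1.65% below ADH2, 2.22% below ADH1, 3.73% below ADH3 and 16.5% below ALD6. Between the lowest alcohol dehydrogenase and the decarboxylases, PDC5 lay under ADH2, with a difference of -0.99 and -0.55 on the 2 arrays they share. PDC1 was under ADH2 on arrays 1 (-3.13 and -1.46) and 3 (-3.53 and -1.01), but the 2 were close on array 2 (-2.19 and -2.15). There PDC1 lay under ADH2 at high power (-2.40 and -1.94) and above it at low power (-1.98 and -2.36). ADH3 lay under ALD6 on all 3, with a mean difference of -0.57 ± 0.50, and ALD6 under ADH5, with -0.40 ± 0.26 (SD, n = 3 each). The top of the order does not hold on arrays 1 and 2, where ADH4 was above ALD4 by 0.56 and 0.34.

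The arrays did not place these genes alike. Of the 7 genes with all 3 values, 6 had their highest ratio on array 3, and PDC1 had its lowest there. Over the 1891 genes and features with all 3 values, 28.1% were highest and 45.5% lowest on array 3. The median log2 ratio of the 7 genes was -1.35, -1.70 and -0.51 on arrays 1, 2 and 3, against 0.13, 0.16 and 0.00 for the 1891. The 7 genes share these arrays, so the pattern is 1 observation of array 3 and not 7; its cause was not tested.

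The 2 scans of an array differed by at most 0.49 for these genes. Between the high and low scans of 1 array the ratio differed by 0.05 (PDC5) to 0.36 (ALD4) on array 1 and by 0.09 (ADH3) to 0.49 (ADH4) on array 2. The median absolute difference over all genes with both scans was 0.11 and 0.20 on these arrays. PDC1, ADH1 and ADH2 differed on array 2 by -0.42, 0.24 and 0.43 (high minus low), so the signs of the difference were mixed. With the high power scans alone the same 6 genes were called lower, and with the low power scans alone all of them but PDC6, which has no value there.

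**Figure D3:**
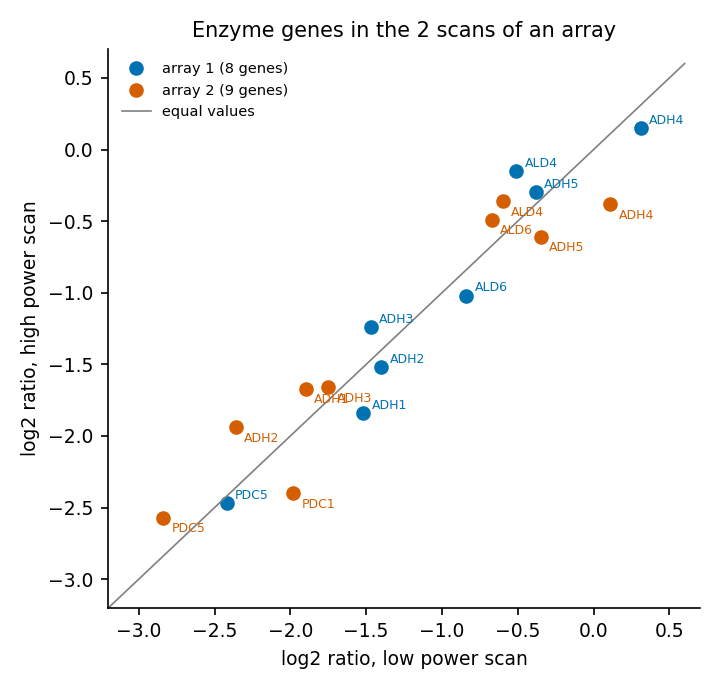
Log2 ratio in the high power scan (vertical axis) against the low power scan of the same array (horizontal axis) for the genes with both values, 8 on array 1 (blue) and 9 on array 2 (orange); the line marks equal values. ADH4 and PDC1 on array 2 lie furthest below the line and ADH2 on array 2 furthest above it.

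On each array the log2 ratio fell with coding length over all genes with a length, with a Spearman rho of -0.48, -0.24 and -0.23 on arrays 1, 2 and 3, and the 10 genes run from 1047 to 1692 bases. After each array's trend on coding length was removed, the same 6 genes were called lower, with PDC1 at -2.79, PDC5 at -2.40, PDC6 at -2.53, ADH1 at -1.44, ADH2 at -1.56 and ADH3 at -1.17. With the median of each of 16 runs of features in numerical order removed as well, ADH3 was at -0.88 and still called (limma adjusted p = 0.000394). The runs were taken as a stand-in for position, and whether feature numbers follow position on the array was not tested. ALD6 moved to -0.49 after the length correction (adjusted p = 0.122).

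The genes with the ratios most like those of PDC1 were looked for by Euclidean distance over the 3 arrays among 1831 named genes. The nearest were MET17 of sulphur assimilation at a distance of 1.28, the riboflavin transporter gene MCH5 at 1.34 and OPI3 of phosphatidylcholine synthesis at 1.40. None was close: MET17 had -2.31, -1.79 and -2.63, each less far below 0 than PDC1 on the same array.

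Around these genes, 11 other enzymes of acetate, glycerol formation and related aldehydes and alcohols were tested. limma called 3 lower and 0 higher, beside 12.7% lower and 11.9% higher over all genes tested, and their median log2 ratio was -0.06. At an unadjusted p under 0.05 limma put 3 lower and 1 higher, beside 774 and 758 of all 4368. ALD5, a further mitochondrial aldehyde dehydrogenase, had -1.86 and -2.61 on arrays 1 and 2, a mean of -2.24 ± 0.52 (SD, n = 2, limma adjusted p = 2.93e-10). That value is far below those of ALD4 and ALD6 on the same arrays. The p-value does not follow ALD5's own spread, and over the alternatives the largest limma adjusted p of ALD5 was 0.00092. ARO10, a decarboxylase of keto acids from amino acids that is related to the PDC family, had -1.42 and -0.88 (mean -1.15, adjusted p = 0.00288). ADH6, an NADPH-dependent alcohol dehydrogenase named after its value was seen, had -0.83, -1.14 and -0.75 (mean -0.91 ± 0.21, SD, n = 3, adjusted p = 0.00434). The call was lost without array 1 or array 2, at an adjusted p of 0.069 and 0.0934. The acetyl-CoA synthetase genes ACS1, at -0.03 ± 0.55 (SD, n = 2), and ACS2, at 0.08 ± 0.59 (SD, n = 3), were not called, nor were the glycerol phosphate dehydrogenase genes GPD1, at -0.06, and GPD2, at 0.14.

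Upstream, the lower glycolytic genes all had a mean below 0, at a median of -0.59. limma called 4 of 9 lower and 0 higher, again beside 12.7% lower and 11.9% higher over all genes tested. At an unadjusted p under 0.05 limma put 6 lower and 0 higher, beside 774 and 758 of all 4368. PGK1, phosphoglycerate kinase, had -1.08, -1.82 and -1.24 (mean -1.38 ± 0.38, SD, n = 3, limma adjusted p = 3.68e-06), and the enolase gene ENO2 had -0.91, -1.82 and -0.42 (mean -1.05 ± 0.71, adjusted p = 0.000734). ENO2 missed the threshold without array 2 (mean -0.67, adjusted p = 0.159). ENO1 at -1.01 and the pyruvate kinase gene CDC19 at -0.83 were the others, both named after their values were seen. CDC19 lost its call without array 1 or array 2, at an adjusted p of 0.144 and 0.0597. PDC1 was thus lower than any of the 9 glycolytic genes on each array, and ADH1 was lower than CDC19 on arrays 1 and 2 only.

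A further 13 tested genes cover pyruvate transport and other enzymes of pyruvate, lactate and related acids, at a median of -0.34. Of these 4 were called lower and 2 higher, where 12.7% of all tested were called lower and 11.9% higher. At an unadjusted p under 0.05 limma also put 4 lower and 2 higher, beside 774 and 758 of all 4368. Of the subunits of the mitochondrial pyruvate carrier, MPC3 and MPC1 were higher, and MPC2, with 0.23, -0.77 and -0.13, was not called (limma adjusted p = 0.586). MPC3 had 2.11, 2.00 and 1.83 (limma adjusted p = 5.56e-12) and MPC1 1.25, 0.92 and 0.78 (adjusted p = 0.00184), where PDC1 on the same arrays was at -3.13, -2.19 and -3.53. MPC1 missed the threshold after the length correction (0.58, adjusted p = 0.0635) and without array 1 (0.85, adjusted p = 0.105). Pyruvate carboxylase PYC1, at -0.82 ± 0.45, and DLD3, a D-2-hydroxyglutarate enzyme of the lactate dehydrogenase family, at -0.74 ± 0.46 (SD, n = 3 each), were called lower, with adjusted p of 0.0108 and 0.0228. Both lost the call after the length correction (adjusted p = 0.179 and 0.0753), without array 1 (0.169 and 0.221) and without array 3 (0.0895 and 0.139). LPD1 at -0.81 and DLD2 at -0.82, each from 2 arrays and named after their values were seen, passed narrowly (adjusted p = 0.0464 and 0.0423) and missed the threshold after the length correction (0.0893 and 0.133).

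**Figure D4:**
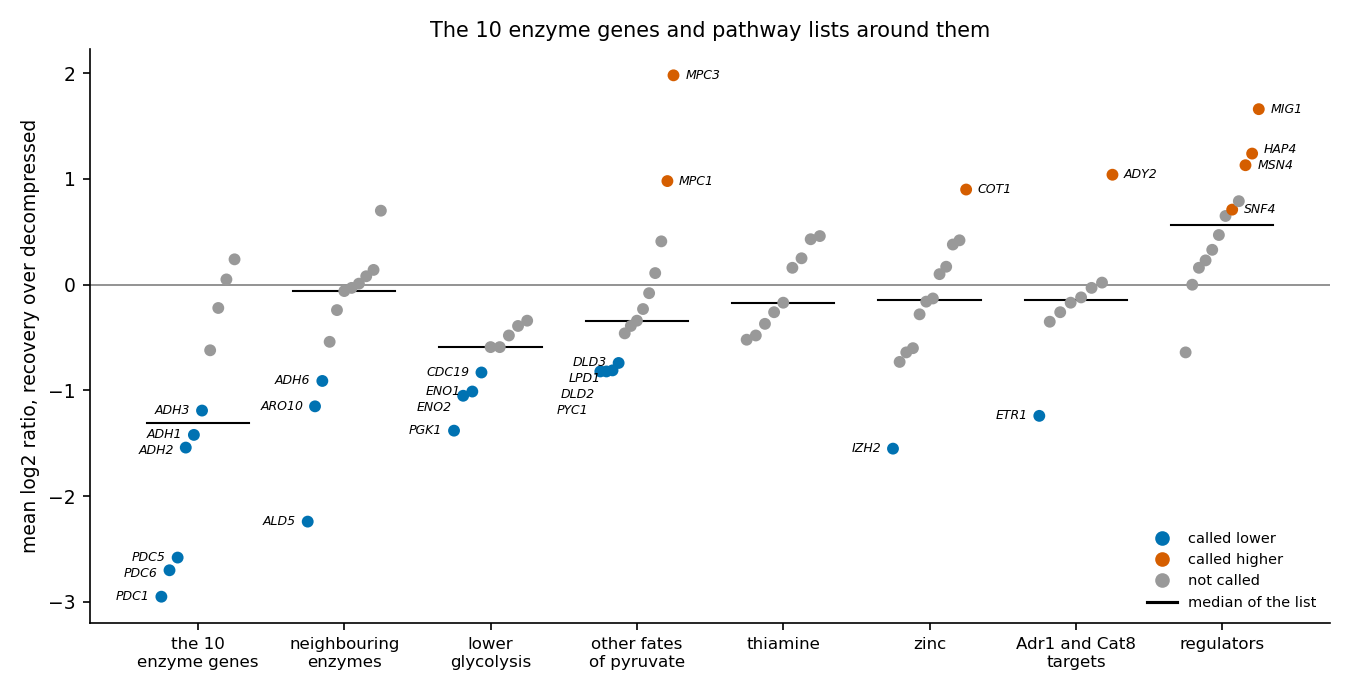
Mean log2 ratio of recovery over decompressed (vertical axis) of every tested gene in the 10 enzyme genes and in each of 7 pathway lists (horizontal axis), with genes called lower in blue, called higher in orange, others in grey, and the median of each list as a line. The 3 PDC genes and ALD5 are the lowest of the genes shown, and MPC3 and MIG1 the highest.

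Thiamine is the cofactor of pyruvate decarboxylase and zinc the metal of most alcohol dehydrogenases. Of 9 tested genes of thiamine uptake, synthesis and control, limma called 0 in either direction, where 12.7% of all tested were called lower and 11.9% higher. At an unadjusted p under 0.05 limma also put 0 in either direction, beside 774 lower and 758 higher of all 4368. Their median was -0.17. Values came from 2 arrays only for 8 of the 9, so the absence of calls does not show that these genes were unchanged. THI3, a PDC-like thiamine sensor, was at -0.37 ± 0.37 (SD, n = 2), and PDC2, an activator of PDC1 and PDC5, had a single value of -0.17, on array 2. Of 12 zinc genes, 1 was called lower and 1 higher, which is close to the 12.7% and 11.9% of all tested. At an unadjusted p under 0.05 limma put 3 of them lower and 1 higher, beside 774 and 758 of all 4368. IZH2, a membrane protein gene of zinc homeostasis, had -1.09, -1.59 and -1.97 (limma adjusted p = 1.4e-07), and COT1, a vacuolar zinc and cobalt transporter gene, 1.19, 0.61 and 0.90 (adjusted p = 0.00464), with no call without array 1 (adjusted p = 0.161). ZAP1 itself was at -0.64 and its target ZRT1 at -0.73, both from 2 arrays and not called, beside ADH4 at 0.05.

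Other targets of Adr1 and Cat8, the activators of ethanol and fatty acid use, were measured thinly: 8 of 20 could be tested, none with a value on array 3. Among them 1 was called lower and 1 higher, near the 12.7% and 11.9% of all tested, at a median of -0.15, beside ADH2 at -1.54. ETR1, a reductase of mitochondrial fatty acid synthesis, had -1.32 and -1.16 (limma adjusted p = 0.0012), and the acetate transporter gene ADY2 0.76 and 1.33 (adjusted p = 0.00805). ICL1 of the glyoxylate cycle at -0.17 and PCK1 of gluconeogenesis at -0.26 were not called.

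Among 12 tested regulators of these pathways limma called 0 lower and 4 higher, beside 12.7% and 11.9% of all tested, with a median of 0.56. At an unadjusted p under 0.05 limma put 1 lower and 6 higher, beside 774 and 758 of all 4368. MIG1, the repressor of glucose-repressed genes, had 1.54, 1.65 and 1.78 (limma adjusted p = 1.31e-08). HAP4, the activating subunit of the respiratory Hap complex, had 0.72, 1.24 and 1.76 (adjusted p = 4.38e-05), and the stress factor gene MSN4 0.83, 1.49 and 1.07 (adjusted p = 0.000241). SNF4, a subunit of the Snf1 kinase, was at 0.71 ± 0.43 (SD, n = 3, adjusted p = 0.0313), at an adjusted p of 0.0502 in the fit over genes with all 3 values, at 0.429 without array 1 and at 0.11 without array 2. The glycolytic activators GCR1 at 0.33 and GCR2 at 0.47, and ADR1 at 0.79 (adjusted p = 0.0529), were not called.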

How the data were processed

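The table the authors deposited holds a log2 ratio for each feature in 5 scans of 3 two-channel arrays; per the labels, the authors used spots with a flag of 0 for LOWESS normalization and scanned arrays 1 and 2 at both laser powers. A merged value of these scans was not used here. The base was read from the values and the direction is not stated. No source used here gives the scanner or the build, and no coordinates are printed. Precision is limited by 3 arrays.

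The platform annotation gave 5297 of 6336 features 1 gene and none several; 1039 had none, and 5293 matched the RefSeq table of assembly R64. Features of a gene were averaged, then scans within an array. limma 3.58.1 in R 4.3.3 (intercept, eBayes, two-sided, Benjamini-Hochberg) tested the mean against 0 over 4368 genes and features with values in at least 2 arrays. Its prior degrees of freedom came out infinite, so the fit over 1891 with all 3 values (12.2 prior degrees of freedom) was run too. It is given beside the first for PDC1, ADH1, ADH2, ADH3, ALD6 and SNF4. The limma p-values of other pathway genes are of the first fit and do not follow a gene's own spread. In the second fit the adjusted p was 0.0145 for ENO2, 0.000106 for MPC3 and 0.000318 for MIG1. No pseudocount or floor was used. On 20 simulated sets, changes were put into 200 of the genes with all 3 values. Log2 changes of 1 and 2 were recovered for 55.1% and 99.6% in the first fit (6.4% of calls false). In the second fit they were recovered for 66.1% and 99.5% (3.8% false). The 200 lay among 4368 in the first fit and 1891 in the second, so the rates of the 2 fits are not like for like. No gene with 2 values was given a change, so the rates do not cover PDC5, PDC6 or ADH4. Fewer genes were changed than were called in the data. The simulated noise was independent between genes, with no trend on coding length and no dye effect. The rates, false calls included, therefore hold for such noise only.

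Named genes are the 10 enzyme genes, up to 2 called genes per direction with the smallest p in each pathway list, called regulators, and the 3 genes nearest PDC1. VTC3, MET6, ADH6, ENO1, CDC19, LPD1, DLD2 and the list genes named as not called were named after their values were seen. The 10 genes and the lists were chosen with earlier results of these data known. Alternatives covered scans, missing values, centring, scaling, weights, prior, coding length, runs of feature numbers, features and each array left out.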

Additional observations from a re-analysis of the deposited data

How the results depend on the processing

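Across 15 alternatives 6 of the 10 enzyme genes had the same direction and the same side of the threshold wherever they could be tested, namely PDC1, PDC5, PDC6, ADH1, ADH2 and ADH5. PDC1 ranged from -3.33 to -2.52, PDC5 from -2.68 to -2.40, PDC6 from -2.81 to -2.41, ADH1 from -1.73 to -1.24 and ADH2 from -1.80 to -1.24. The count called lower ran from 3 to 7 when 1 array was left out: 4 of 7 tested without array 1, 3 of 7 without array 2 and 7 of 10 without array 3. PDC5, PDC6 and ADH4 cannot be tested without array 1 or 2. The count called higher was 0 in every alternative. ALD4, not called, changed sign with array weights (-0.02) and without array 3 (-0.40, against 0.53 and 0.60 without array 1 and array 2), and ADH4 with high power scans only (-0.12); the cause was not tested.

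The alternatives for the pathway lists were added after seeing the data. Joined, the lists had 13 genes lower and 8 higher of 72 tested. With the low power scans of arrays 1 and 2 and the single scan of array 3, 7 were lower, of 60 tested. With values on all 3 arrays required, 8 were lower, of 35. With 1 array left out the counts ran from 4 to 12 lower and from 4 to 9 higher. Of the 24 pathway genes and neighbours of PDC1 that were called, 14 passed with the same sign in every alternative that gave them a value, 10 lost the call in at least 1, and 0 changed sign. Over all genes, the counts were 554 lower and 518 higher of 4368 tested. They were 314 and 319 of 3478 with the low power scans and the single scan of array 3. They were 393 and 347 of 4170 with the length trend removed, and 230 and 285 of 1891 with values on all 3 arrays required. They were 133 and 129 of 2004 without array 1, 164 and 176 of 1933 without array 2, and 547 and 510 of 4213 without array 3. Each ratio pairs the recovering and decompressed RNA of 1 array, so the test is paired as it stands. No depth or background signal is known for single spots.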
